A study of Mus musculus with 4 samples.

Results

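Antibody genes were followed in single-cell libraries of mouse liver through 10 of the 32285 genes that the files list. They are the heavy chain constant genes Ighm, Ighd, Ighg3, Ighg1, Ighg2b, Ighg2c and Igha, the light chain constant genes Igkc and Iglc2, and Jchain, which encodes the joining chain. The genes were chosen by symbol, and all 10 were present. Livers came from male C57BL/6J mice bought at the age of 5 weeks. One library was of liver after normal chow (NCD), 2 were of liver after a high-fat diet (HFD), and 1 was of liver after the same high-fat diet with Jiangtang Qingre Formula (JQF), a mixture of medicinal herbs. The diets had been fed for 14 weeks before an 8-week intervention, during which NCD and HFD mice received water by mouth in place of JQF. HFD and JQF mice thus shared the diet, and NCD and HFD mice shared the water. With 1 library each, NCD and JQF had no replicate, and the spread between libraries was known for HFD alone.

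An antibody is built of paired heavy and light chains, and the constant gene joined to the heavy chain sets its class. Naive B cells carry IgM and IgD on their surface, both spliced from the same transcript of a rearranged locus, and class switching later replaces them with one of the IgG genes, IgE or IgA. Plasma cells, the secreting end stage of the lineage, turn out antibody in bulk, and in IgM and IgA the joining chain links antibody units into polymers that epithelia, bile ducts included, can carry across.

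The ends of the heavy chains show which classes can take up the joining chain. The last 60 coding bases of the secreted forms are given here 5′ to 3′ on the coding strand, from GENCODE M21 transcripts on GRCm38, because the joining chain is described below together with the heavy chain class. The capitals mark the codon before the last amino acid codon where it encodes cysteine, the residue of the tailpiece to which the joining chain is bound.
Ighm (chr12:113420867-113420926, minus strand): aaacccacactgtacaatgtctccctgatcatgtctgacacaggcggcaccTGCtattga
Igha (chr12:113258768-113258827, minus strand): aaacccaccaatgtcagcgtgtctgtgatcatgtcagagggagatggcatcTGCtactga
Ighg2b (chr12:113306389-113306448, minus strand): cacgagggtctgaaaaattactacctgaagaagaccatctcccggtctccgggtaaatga
Ighg2c (chr12:113287389-113287448, minus strand): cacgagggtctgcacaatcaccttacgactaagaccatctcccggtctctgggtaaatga
Ighm and Igha end in a cysteine codon followed by a tyrosine codon and the stop codon, and the secreted forms of Ighg1, Ighg2b, Ighg2c and Ighg3 all have a glycine codon (ggt) in its place. All heavy chain genes lie on the minus strand of chromosome 12, from Ighm at 113418558 to 113422730 down to Igha at 113254830 to 113260236. Igkc is on chromosome 6 at 70726435 to 70726966, Iglc2 on chromosome 16 at 19198396 to 19200351 and Jchain on chromosome 5 at 88519809 to 88527891.

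Among the lambda genes Iglc3 is a close copy of Iglc2, whereas Iglc1 is more distant. Their last 90 coding bases are shown for that reason, with capitals at the 27 positions where the 3 genes are not all alike.
Iglc1 (chr16:19061752-19061841, minus strand): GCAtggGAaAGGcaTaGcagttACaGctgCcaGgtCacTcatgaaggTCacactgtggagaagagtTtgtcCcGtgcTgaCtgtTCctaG
Iglc2 (chr16:19198536-19198625, minus strand): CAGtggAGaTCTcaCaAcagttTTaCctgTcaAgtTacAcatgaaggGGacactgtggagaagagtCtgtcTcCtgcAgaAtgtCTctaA
Iglc3 (chr16:19065365-19065454, minus strand): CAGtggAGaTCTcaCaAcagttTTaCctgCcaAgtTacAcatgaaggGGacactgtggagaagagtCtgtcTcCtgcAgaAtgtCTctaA
Iglc3 differed from Iglc2 at 1 of these bases and Iglc1 differed from it at 27. Over the whole annotated transcripts, 4.17% of the 60-base windows of Iglc2 also occur in Iglc3. Reads within them cannot tell these genes apart. Among the heavy chains, 1.53% of the windows of Ighg2b occur in Ighg2c and 1.11% in Ighg3, and Ighm, Ighd, Ighg1 and Igha shared 0 windows with any other gene compared.

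After filtering, 29025 cells remained, at a median of 7424 to 12769.5 unique molecular identifiers (UMIs, each counting 1 captured molecule) per cell and library, and no pair of libraries had more than 24 cell barcodes in common. Cells were clustered with 397 immunoglobulin genes and Jchain left out of the variable genes and named from other markers, so the names B cell and plasma cell stand for B cell-like and plasma cell-like clusters that rest on none of the 10 genes. Although the labels call the samples immune cells, endothelial cells, hepatocytes, epithelial and stellate cells were also present. B cells numbered 384 in NCD, 291 and 378 in HFD replicates 1 and 2, and 356 in JQF, and all 9 B cell markers were detected in each library. Plasma cells numbered 7, 9, 16 and 56 in the same order, which was 0.125%, 0.147%, 0.17% and 0.705% of the cells, with all 10 plasma cell markers detected in each library. With predicted doublets kept they numbered 12, 9, 32 and 57, or 0.201%, 0.138%, 0.312% and 0.667%. With predicted doublets removed, NCD and HFD replicate 1 fell under the minimum of 10 cells set for the edgeR test of levels, so levels in plasma cells are described without a test.

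Immunoglobulin transcripts made up 48.4% of all plasma cell UMIs of the NCD library, 55.4% and 53.5% of those of the HFD replicates and 48.8% of those of JQF. In B cells the share was lower, at 0.797% for NCD, 1.21% and 1.31% for HFD and 1.52% for JQF. Although plasma cells were the rarer type, they held most of the Igkc and Jchain transcripts of each library. Of all Igkc UMIs in kept cells, plasma cells held 72.7% (NCD), 88.1% and 88.3% (HFD replicates) and 85.3% (JQF), and of Jchain UMIs they held 96.6%, 99.5%, 96.8% and 85.8%. Ighd had 89.0% to 94.8% of its UMIs in B cells and 1 UMI in the plasma cells of all libraries together. Iglc2 was also mostly in B cells in NCD (73.4%) and HFD (76.6% and 67.3%), whereas in JQF plasma cells held 56.4% of it. For Ighm the B cell share was 29.1%, 15.2%, 43.8% and 10.4% in the order NCD, HFD replicates 1 and 2, and JQF, and the plasma cell share was 59.1%, 69.6%, 1.42% and 58.2%.

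**Figure D1:**
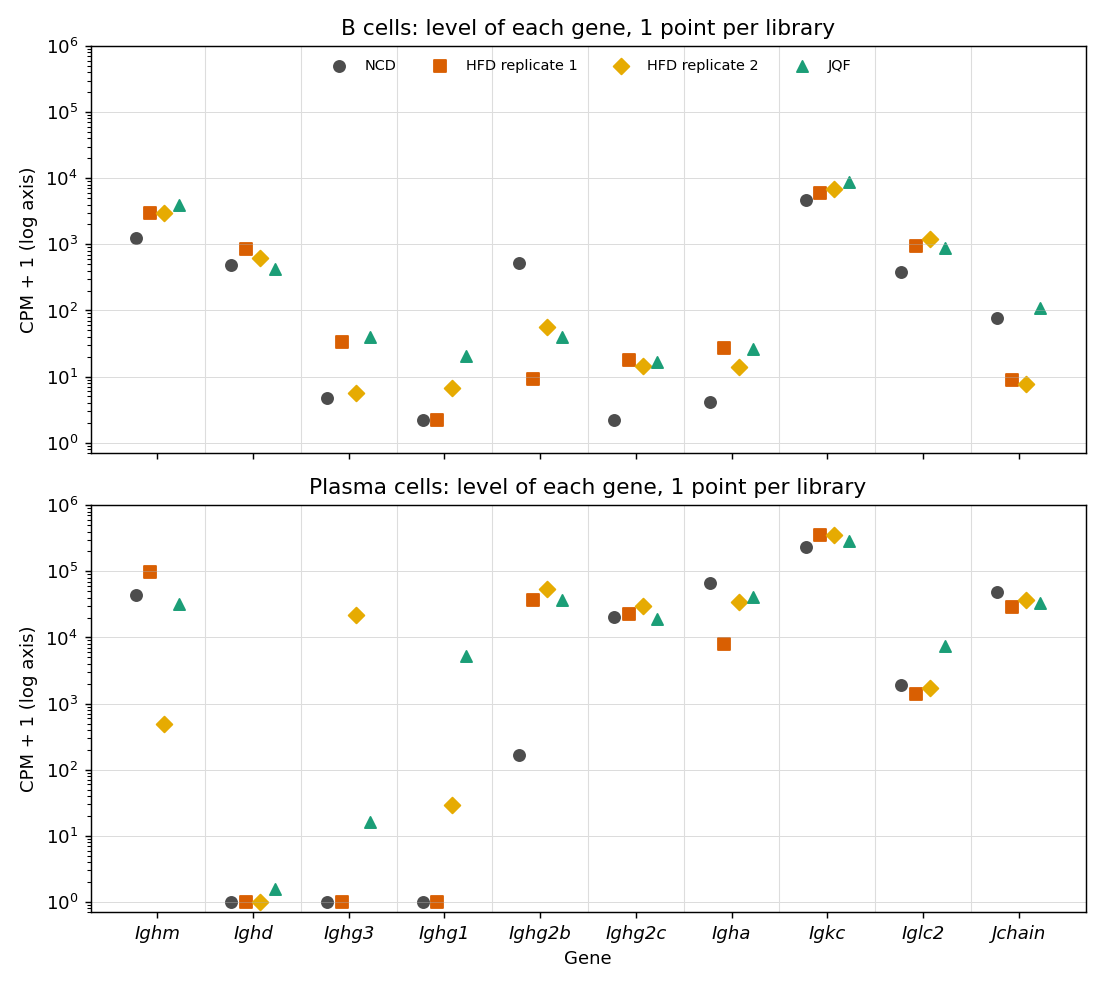
Level of each gene in CPM (UMIs of the gene per 1e+06 UMIs of the cells summed, plus 1, log axis) in B cells (top) and plasma cells (bottom), 1 point per library. Ighm, Ighd, Igkc and Iglc2 lie at 379 CPM or more in the B cells of every library, whereas in plasma cells Ighm spans 490 to 96321 CPM and Ighg3 and Ighg1 are at 0 in NCD and HFD replicate 1.

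In plasma cells each cell was given the class of the heavy chain gene with the most UMIs. That gene held 90% or more of the heavy chain UMIs in 83 of 88 cells and 58.4% in the lowest cell, and 1 NCD cell had no heavy chain UMI. IgA cells were found in every library. IgA led in 3 of the 7 NCD plasma cells (42.9%, exact 95% interval 9.90% to 81.6%), in 2 of 9 (22.2%, 2.81% to 60.01%) and 6 of 16 (37.5%, 15.2% to 64.6%) in HFD, and in 20 of 56 (35.7%, 23.4% to 49.6%) in JQF. The intervals overlap throughout and cover counting error only. An exact permutation test over libraries gave p = 0.667 for HFD against NCD and p = 1 for JQF against HFD (two-sided, and 0.333 is the smallest value that 1 library against 2 can give).

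Ighm was the top gene in 2 plasma cells of NCD, in 5 and 0 of the HFD replicates and in 15 of JQF (26.8%, 15.8% to 40.3%). The HFD replicates thus differed as far as any groups did: 0 of 16 cells in replicate 2 allow a share of up to 20.6%, and replicate 1 had 55.6% (21.2% to 86.3%). Plasma cells of replicate 2 held 187 Ighm UMIs, but 22563 with predicted doublets kept, near the 23147 of replicate 1. The count of 0 IgM cells thus holds only for the cells left after doublet removal. Ighg2b, an IgG2 subclass, was top in 0, 1, 4 and 13 cells in the order NCD, HFD replicates 1 and 2, and JQF. Its neighbour Ighg2c, the form of IgG2a that C57BL/6 mice carry, was top in 1, 1, 2 and 6 cells. Ighg3 led in 4 cells of HFD replicate 2 and in 1 of JQF, and Ighg1 in 1 cell of JQF. The plasma cells of HFD replicate 2 held 8480 Ighg3 UMIs in all. Those of JQF held 27 (15.2 CPM, against 230 CPM in JQF low-UMI barcodes). The Ighg3 cell of JQF thus rests on 27 UMIs at most, which cannot be told apart from free RNA. With predicted doublets kept, Ighg1 in the plasma cells of HFD replicate 2 went from 11 to 12201 UMIs, against 9189 in JQF. Ighe was the top gene in 0 plasma cells and 0 B cells.

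**Figure D2:**
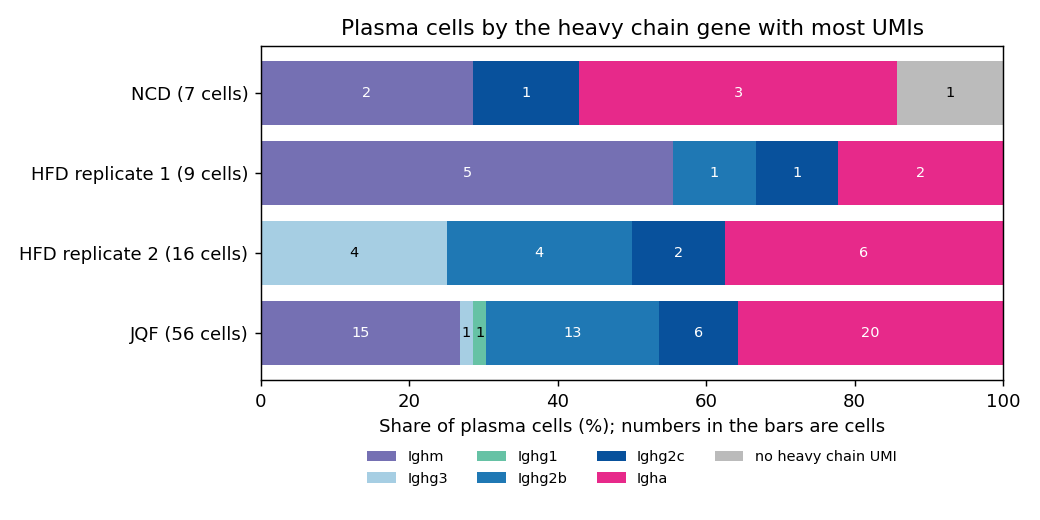
Share of plasma cells (%) by the heavy chain gene with the most UMIs, 1 bar per library, with the number of cells written in each bar. Predicted doublets are removed. IgA cells are present in all 4 libraries, IgM cells make up 5 of 9 cells in HFD replicate 1 and 0 of 16 in HFD replicate 2, and the 56 cells of JQF hold 6 classes, of which Ighg3 rests on 27 UMIs at most.

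The level of a class in a library rested on few cells. Igha stood at 67176 CPM in NCD, 7869 and 34120 CPM in HFD and 40950 CPM in JQF, and the 3 highest cells held all but 1 of the Igha UMIs in NCD, all of them in HFD replicate 1, 71.8% in HFD replicate 2 and 26.6% in JQF. Ighg2c varied least among the IgG genes, at 20666, 22288, 29993 and 18748 CPM, although a single cell supplied all of it in NCD and in HFD replicate 1. Ighg2b stood at 166 CPM in NCD, where no cell had it as its top gene, and at 36449, 53883 and 36388 CPM elsewhere. The NCD value was 8037 CPM with cells of at least 200 genes, 8135 CPM with immunoglobulin genes among the variable genes and 11725 CPM with predicted doublets kept. With at least 200 genes it rested on 1679 UMIs in place of 31, and the 1 NCD B cell described below held 1648. JQF lay between the HFD replicates for Ighm, Ighg3 and Jchain. With predicted doublets kept HFD replicate 2 had 32 plasma cells in place of 16 and 33397 CPM of Ighm in place of 490, and JQF was then outside the HFD replicates for Ighm and Jchain. No test was run on these levels.

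Among light chains, kappa dominated. Igkc stood at 232784 CPM in the plasma cells of NCD, 356263 and 350288 CPM in HFD and 291651 CPM in JQF, so NCD and JQF were both below both HFD replicates. The log2 ratio was 0.60 for HFD over NCD and -0.28 for JQF over HFD. Lambda genes together outnumbered Igkc in 1 of 7, 0 of 9, 0 of 16 and 4 of 56 plasma cells. Iglc2 was at 1907, 1419, 1723 and 7389 CPM, and the high JQF value rested on 3 cells that held 86.6% of it. In NCD the lambda cell carried Iglc1, which had 10941 UMIs in that library's plasma cells against 357 of Iglc2.

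Jchain was found in plasma cells of every class. It stood at 49470 CPM in NCD, 28829 and 36637 CPM in HFD and 33135 CPM in JQF, with NCD above the other libraries and JQF between the HFD replicates. With predicted doublets kept NCD was at 32154 CPM, below HFD replicate 2 (32163 CPM) and JQF (33009 CPM). Over all libraries the median was 970 Jchain UMIs in the 22 IgM cells, 915 in the 31 IgA cells and 900 in the 34 IgG cells. Within JQF, Jchain summed over the cells of a class was 37744 CPM in IgM, 37457 CPM in IgA and 27455 CPM in IgG cells, whereas within HFD replicate 2 it was 34887 CPM in IgA and 37379 CPM in IgG cells. At least 1 Jchain UMI was present in 33 of the 34 IgG cells, whose heavy chain lacks the cysteine codon shown above. A single UMI can come from free RNA, so the medians say more than this count. The order of the classes differed between these libraries, and no test was made between classes because the cells come from 4 libraries only. Variable genes differed from cell to cell: 13 of 15 IgM plasma cells in JQF had an Ighv gene with UMIs, and they carried 8 different ones, of which Ighv1-53 was in 5 cells. In HFD replicate 1 Ighv2-5 was in 3 of the 5 IgM cells.

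A further 42 barcodes of the plasma cell cluster, all of them from JQF, were set apart before these counts because their median of 2510.5 UMIs was 0.292 times that of the library. The marker rule named them plasma cells too, with 5 of 10 markers passed, and setting them apart was decided after the data were seen. In 41 of them Igkc lay between 245 and 412 UMIs and Ighm per Igkc UMI between 0.225 and 0.379, with a median of 0.3, and the remaining barcode had 1 Igkc UMI. By comparison, Igkc in the 56 JQF plasma cells ran from 0 to 27868 UMIs with a median of 9308.5. No other library had such barcodes. Had they been counted as plasma cells, JQF would have had 98 of them, and the IgA share of JQF would have moved from above to below the HFD mean, a difference of -9.45 percentage points in place of 5.85.

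In B cells the transcripts were those of unswitched cells. Ighm or Ighd was the top heavy chain gene in 97.7% of the B cells of the NCD library, 97.9% and 97.6% of the HFD libraries and 95.5% of JQF (exact 95% interval 92.8% to 97.4%). The JQF share was below the other libraries, and the exact permutation test gave p = 0.333 for JQF against HFD, the smallest value possible. Cells with an IgG gene on top made up most of the remainder there. The top gene needed no minimum of UMIs and free RNA was not subtracted, so such cells need not have switched. An IgG gene was top in 2, 5, 7 and 14 B cells in the order NCD, HFD replicates 1 and 2, and JQF, which was 0.521% (0.0631% to 1.87%), 1.72% (0.56% to 3.96%), 1.85% (0.748% to 3.78%) and 3.93% (2.17% to 6.51%). IgA was top in 0, 1, 1 and 1 B cells. Of the 1379 B cells with a UMI of either Ighm or Ighd, 86.9% had both, the state known of naive B cells.

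The balance between Ighm and Ighd differed between libraries. Both come from 1 transcript unit, and whether intronic reads were counted, which could move reads between them, is not settled by the sources. Ighd outnumbered Ighm in 57 B cells of NCD (14.8%, 11.4% to 18.8%), in 12 (4.12%) and 14 (3.7%) of the HFD replicates and in 5 of JQF (1.4%, 0.458% to 3.25%). The NCD interval lay above those of the other libraries, whereas the JQF interval overlapped those of HFD (2.15% to 7.09% and 2.04% to 6.14%). In CPM, Ighm in B cells was 1246 for NCD, 3005 and 2972 for the HFD replicates and 3966 for JQF. The median over single B cells was 996, 2795, 2853 and 2241 CPM, so NCD was lowest on both scales, whereas JQF was highest in the sum and below HFD in the median. Ighd stood at 485, 840, 629 and 416 CPM, with NCD and JQF below both HFD replicates.

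Switched genes were scarce in B cells. Igha was at 3.09, 26.2, 12.9 and 25.1 CPM and Ighg2c at 1.23, 16.7, 13.4 and 15.7 CPM, lower in NCD than in any other library. Ighg1 was at 1.23, 1.19, 5.68 and 19.6 CPM, and 3 cells held 94% of the 50 UMIs in JQF. Ighg3 was at 3.7, 32.8, 4.65 and 38.02 CPM, so that the HFD replicates lay far apart, with 90.9% of the UMIs of replicate 1 in 3 cells. All of these values were below the level of the same gene in low-UMI barcodes, those with at most 100 UMIs, which were used to measure RNA that is free in the suspension. The exceptions were Ighg3 in NCD and in HFD replicate 1. Free RNA is only a part of the UMIs of a cell, so the low-UMI level is not a floor for these values. In cells outside B and plasma cells Igha was at 1.47, 0.373, 6.54 and 11.8 CPM. Ighg2c was at 0.407, 0.611, 7.25 and 2.76 CPM there, with 8 JQF cells above 5% immunoglobulin UMIs left out for both genes. Pooled over all those types, these levels were lower than in the B cells of the same library, but not so for every single type. In HFD replicate 2, neutrophils held 25 Igha and 31 Ighg2c UMIs. B cells held 25 and 26, from more UMIs in all, so neutrophils were above them for both genes.

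For 2 genes a single cell decided the library. In NCD, 1 B cell in which 37.0% of the UMIs were immunoglobulin held 98.4% of the Ighg2b UMIs, 97.1% of the Jchain UMIs and 36.9% of the Igkc UMIs of all 384 B cells. Ighg2b in NCD was 517 CPM with this cell and 8.07 CPM without it, against 8.34 and 55.3 CPM in HFD and 38.02 CPM in JQF. Jchain in NCD was 75.3 CPM with it and 2.17 CPM without it, against 7.75 and 6.72 CPM in HFD. In JQF, 1 B cell with 33.7% immunoglobulin UMIs likewise held 93.9% of the Jchain, 48.5% of the Ighg3 and 37.1% of the Ighm UMIs. Without that cell Jchain fell from 109 to 6.76 CPM there and Ighm from 3966 to 2528 CPM. These were the only B cells above 5% immunoglobulin UMIs in any library, and the calls on the 10 genes that they changed are given with and without them.

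HFD B cells carried more IgM and lambda transcripts than NCD B cells. Ighm was higher by a log2 fold change of 1.23 (SE 0.27, edgeR quasi-likelihood test, Benjamini-Hochberg adjusted p = 7.59e-05) and Iglc2 by 1.49 (SE 0.28, edgeR adjusted p = 4.36e-06), with both HFD replicates above NCD. These calls held under every alternative that gave a test, at adjusted p between 6.22e-05 and 0.0343 for Ighm and between 1.78e-06 and 0.0343 for Iglc2. Igha (2.59, SE 0.52), Ighg2c (3.52, SE 0.67) and Ighg3 (2.24, SE 0.48) were also called higher, from sums of 4 to 12 UMIs in NCD. Their levels were below those of low-UMI barcodes, which are not a floor for cells, except for Ighg3 in NCD and HFD replicate 1. The adjusted p reached 0.0698 for Igha and 0.174 for Ighg3 among the alternatives. The value of Ighg3 rested on HFD replicate 1, since it was 0.34 without that library and 3.01 without replicate 2. In all, 7 of the 10 genes passed an adjusted p of 0.05 in HFD vs NCD, 5 higher and 2 lower, beside 26.9% of the 10620 genes tested, of which 12.4% were higher and 14.5% lower. The median log2 fold change was 1.35 over the 10 genes and 0.06 over all genes.

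The 2 lower calls were Ighg2b (-4.00, SE 0.26) and Jchain (-3.40, SE 0.31), and both turned with the 1 NCD cell described above. Without it Ighg2b was called higher in HFD, by 1.99 (SE 0.37, edgeR adjusted p = 2.94e-06), from 8.07 CPM in NCD against 8.34 and 55.3 CPM in HFD, so this call rests on HFD replicate 2. These levels were below those of low-UMI barcodes (25.7, 60.01 and 282 CPM) and above those outside B and plasma cells (0.296, 1.02 and 4.97 CPM). Without the 1 NCD cell Jchain was at 1.68 (SE 0.83, edgeR adjusted p = 0.116). Igkc, at 0.42 (SE 0.25, adjusted p = 0.196) with all cells, was then called higher by 1.08 (SE 0.26, adjusted p = 0.00035), so that 7 genes were again called, all of them higher. Over the alternatives the adjusted p ran from 8.11e-52 to 0.165 for Ighg2b, from 2.43e-25 to 0.152 for Jchain and from 0.00035 to 0.482 for Igkc. Ighd was at 0.56 (SE 0.27) and Ighg1 at 1.47 (SE 0.90), and neither passed the test in either case. By DESeq2 3 of the genes passed, Ighm, Iglc2 and Jchain, and 317 of all genes, but DESeq2 gave no adjusted p for Igha, Ighg1, Ighg2c and Ighg3. The SE of Ighg2b with all cells was 1.78 by DESeq2 against 0.26 by edgeR, and that of Ighg3 was 1.78 against 0.48.

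**Figure D3:**
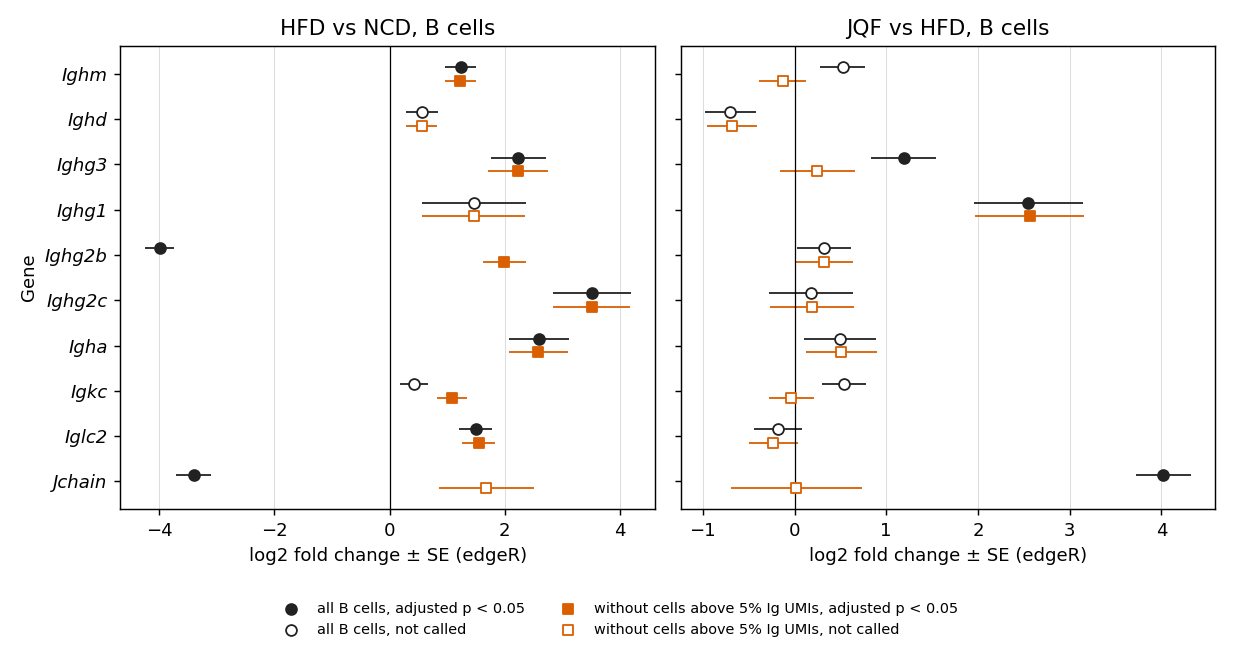
Log2 fold change (± SE, edgeR) of each gene in B cells for HFD vs NCD (left) and JQF vs HFD (right), with all B cells (circles) and without the 2 cells above 5% immunoglobulin UMIs (squares); filled symbols have an adjusted p under 0.05. Ighm and Iglc2 are at the same place with and without these cells in HFD vs NCD, whereas Ighg2b and Jchain change side on the left and Jchain goes from 4.02 to 0.02 on the right.

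The B cells of NCD also stood apart in other ways. Ribosomal protein genes made up 9.89% of their UMIs, against 17.3% and 18.5% in HFD and 20.5% in JQF, their median depth was 7904.5 UMIs against 4734 to 6121.5, and the 7 hepatocyte markers summed to 418 CPM in them against 33.4 to 182 CPM elsewhere. The part of these differences in the fold changes was not tested. NCD is 1 library, and its diet cannot be told apart from any other property of that library.

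Between JQF and HFD, 3 of the 10 genes were called, all higher: Jchain (4.02, SE 0.30, edgeR adjusted p = 8.18e-37), Ighg1 (2.55, SE 0.60, adjusted p = 0.00171) and Ighg3 (1.19, SE 0.35, adjusted p = 0.0275). Of all genes tested, 3.62% were called, 2.48% higher and 1.14% lower. When the JQF cell rich in immunoglobulin was left out, Jchain was at 0.02 (SE 0.71, adjusted p = 0.996) and Ighg3 at 0.25 (SE 0.41, adjusted p = 0.865). Ighg1 alone was still called (2.57, SE 0.59, adjusted p = 0.0015), and it rests on 50 UMIs, 94% of them in 3 cells. With all cells it was 1.85 without HFD replicate 1 and 4.23 without replicate 2, and Ighg3 was 3.09 and 0.47. With immunoglobulin genes among the variable genes Ighg3 was at 5.40. Over the alternatives the adjusted p lay between 0.000279 and 0.752 for Ighg1, between 0.0027 and 0.937 for Ighg3 and between 7.99e-37 and 0.996 for Jchain. Ighm was at 0.52 (SE 0.25, adjusted p = 0.305) with all cells and -0.13 (SE 0.26) without the 1 cell, and Ighd was at -0.70 (SE 0.28, adjusted p = 0.163). A difference of Ighm, Ighd or Igkc between JQF and HFD was thus not detectable with these libraries.

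The wider pathway is given from lists of B cell genes, whose counts are to be read beside the 26.9% of all genes called in HFD vs NCD (12.4% higher, 14.5% lower) and the 3.62% called in JQF vs HFD. Of 16 genes of the B cell receptor complex and its signal, 6 rose and 0 fell in HFD vs NCD, among them Cd79b (1.49, SE 0.29), which carries the receptor's signal with Cd79a, and Cd22 (1.25, SE 0.27), an inhibitory coreceptor. The median of that list was 0.59. Of 8 tested genes of survival and homing 3 were higher and 2 lower, with Tnfrsf13c, the BAFF receptor, at 1.94 (SE 0.28) and Tnfrsf13b, also known as TACI, at 1.38 (SE 0.27). The 2 lower ones were the homing receptor Ccr7 (-0.995, SE 0.26) and the adhesion receptor Cd44 (-0.83, SE 0.25). Of 14 lineage factors 5 rose and 1 fell, with Spib at 1.60 (SE 0.27). Among 13 tested genes of class switching and hypermutation 2 rose and 1 fell. Of 11 tested receptors and transporters of immunoglobulin 3 rose and 1 fell, the latter being Pigr (-1.23), which moves polymeric IgA across epithelia and is an epithelial and hepatocyte gene, at a mean of 13.4 CPM in B cells.

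Folding and secretion genes moved both ways in HFD vs NCD, with 5 of 17 higher and 2 lower. Among the higher ones Txndc5 rose by 1.27 (SE 0.27), from 29.3 CPM in NCD to 67.9 and 76.0 CPM in HFD. Txndc5 stood at 88.2 CPM in JQF. Without the 2 B cells rich in immunoglobulin 6 of 15 were higher and 2 lower, and the counts of the other lists above were as with all cells. Ell2, an elongation factor for secretory heavy chain processing, stood at 600 CPM in NCD, 98.9 and 108 CPM in HFD and 242 CPM in JQF, and fell by 2.56 (SE 0.25) on the log2 scale in HFD. Hspa5, the chaperone BiP that holds unpaired heavy chains, stood at 597, 196, 252 and 431 CPM and fell by 1.44 (SE 0.25) in HFD. Between JQF and HFD both were called higher, Ell2 by 1.34 (SE 0.26) and Hspa5 by 1.05 (SE 0.26), with 3 of 17 genes called and all 17 above 0 at a median of 0.62. The median over all genes was -0.017 in that comparison. Without the 1 JQF cell 2 of 15 were called, 14 were above 0 and the median was 0.26. In the receptor list 1 of 16 genes was called in JQF vs HFD, Btk, a kinase of the receptor pathway, at -0.91 (SE 0.26). Of the 14 lineage factors 1 was called in JQF vs HFD, Xbp1, a factor of plasma cell secretion, at 1.16 (SE 0.28), and 0 were called without the 1 JQF cell. With predicted doublets kept 0 genes were called in JQF vs HFD (771 at an unadjusted p under 0.05 by edgeR), so the calls of Ell2, Hspa5, Btk and Xbp1 were lost there. With predicted doublets removed, no gene of the survival, class switching or receptor transport lists was called by edgeR in JQF vs HFD. Of these lists 2, 1 and 3 genes were at an unadjusted p under 0.05 by edgeR. Erythroid markers summed to 1242 CPM in JQF B cells against 1.79 to 27.2 CPM elsewhere, and the part of that in these values was not tested.

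Among B cells as a population, lambda was top in 23 of 378 cells with a light chain UMI in NCD (6.08%, 3.90% to 8.99%), in 24 of 291 (8.25%, 5.36% to 12.0%) and 39 of 376 (10.4%, 7.48% to 13.9%) in HFD and in 35 of 355 (9.86%, 6.96% to 13.4%) in JQF. The intervals of all libraries overlap. Iglc2 was at 379, 951, 1218 and 887 CPM. Its median per B cell was 156 CPM in NCD against 773, 862 and 619 CPM elsewhere, and 67.4% of NCD B cells had an Iglc2 UMI against 89.0% to 91.8%, although NCD was the deepest library. At 2000 UMIs per cell the shares were 36.5% and 64.0% to 77.1%. In comparison, Igkc reached 94.9% to 96.0% of thinned cells in HFD and JQF and 93.2% in NCD.

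Outside B and plasma cells Igkc was 12.7 CPM in NCD, 24.2 and 52.1 CPM in HFD and 619 CPM in JQF. In low-UMI barcodes it was 945, 623, 2125 and 4477 CPM, so the other types were at 0.0134, 0.0388, 0.0245 and 0.138 times the low-UMI level. They were below it in 4 of 4 libraries (exact sign-flip permutation test, two-sided p = 0.125, the smallest value 4 libraries can give). In cells that do not make Igkc, free RNA is only a part of the UMIs. The direction was thus given beforehand, and the test decides nothing about spill. In JQF 8 cells of other types had over 5% immunoglobulin UMIs, namely 5 T cells and 1 cell each of the endothelial, epithelial and monocyte clusters. They held 90.1% of the Igkc and 94.3% of the Jchain UMIs found outside B and plasma cells, and median depths by cluster were 33648 to 59760 UMIs. Without them Igkc was 61.7 CPM in JQF and Jchain 5.49 CPM. No such cell was found in the other libraries. Doublets were removed by score, and with predicted doublets kept the ratio was 0.0709, 0.0414, 0.108 and 0.212.

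**Figure D4:**
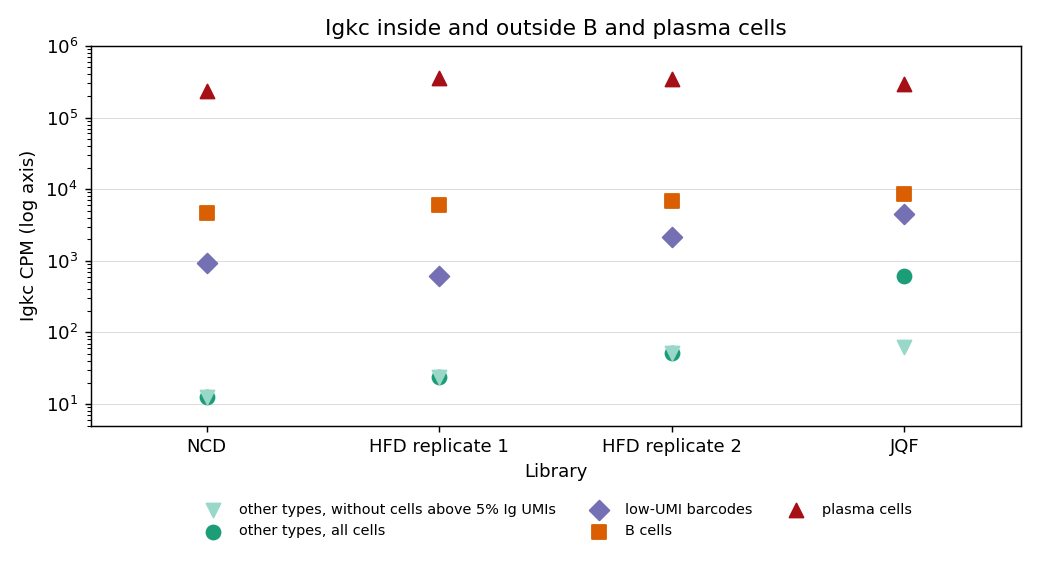
Igkc level (CPM, log axis) per library in plasma cells, B cells, low-UMI barcodes, and cells of all other types with and without those above 5% immunoglobulin UMIs. Other types lie below the low-UMI barcodes in all 4 libraries, and JQF drops from 619 to 61.7 CPM when 8 cells are left out.

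The low-UMI barcodes themselves differed in what they held. Igha was at 178 CPM in NCD, 36.1 and 303 CPM in HFD and 1048 CPM in JQF, and Jchain at 115, 44.7, 320 and 539 CPM, with JQF highest for both. Ighd was at 9.07 to 24.1 CPM there, far under its level in B cells in every library.

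Ighm stood in another proportion to Igkc outside the B lineage than in low-UMI barcodes. In low-UMI barcodes there were 0.405, 0.404, 0.152 and 0.114 Ighm UMIs for each Igkc UMI, in the order NCD, HFD replicates 1 and 2, and JQF. In dendritic cells there were 8.89, 16.2, 5.35 and 2.85, and in NK cells 9.43, 21.9, 2.49 and 1.81. Endothelial cells were at 0.245, 0.714, 0.167 and 0.169, below the low-UMI barcodes in NCD and above them in the other libraries, with 5 Ighm and 7 Igkc UMIs behind the value of HFD replicate 1. Plasmacytoid dendritic cells, in which partial rearrangement of the heavy chain locus is known, had the highest Ighm level among the named types outside B and plasma cells, with 507 CPM in NCD, 851 and 863 CPM in HFD and 848 CPM in JQF. This ranking leaves out the 8 JQF cells above 5% immunoglobulin UMIs. The 1 such cell among endothelial cells took their JQF sum from 45 to 5582 Ighm UMIs. An Ighm UMI was found in 97.0% to 100% of plasmacytoid dendritic cells. When these cells were thinned to 2000 UMIs, it was found in 62.5% to 86.0% of them, against 0% to 0.5% for Jchain. Dendritic cells stood at 89.2 to 133 CPM, NK cells at 52.4 to 128 CPM, and T cells at 76.0 to 94.9 CPM, with the 5 JQF cells above left out. NCD was lowest for Ighm in plasmacytoid dendritic, dendritic, NK and T cells, as it was in B cells.

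**Figure D5:**
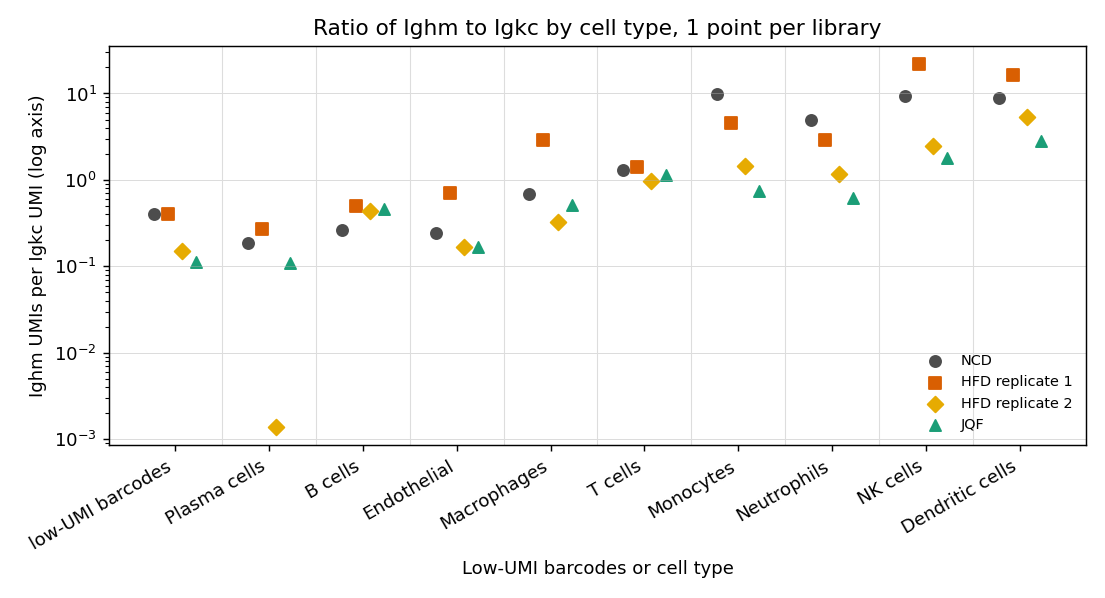
Ighm UMIs per Igkc UMI (log axis) in low-UMI barcodes and in cell types, 1 point per library, without the JQF cells of other types above 5% immunoglobulin UMIs. Dendritic cells lie above the low-UMI barcodes of their own library in 4 of 4 libraries, and plasma cells of HFD replicate 2 lie lowest at 0.0014; the NCD monocyte, NK cell and neutrophil points rest on 4 to 7 Igkc UMIs.

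Across 48 sums of 13 cell types and 4 libraries, the genes whose log2(CPM + 1) was most like that of Ighm were Tnfrsf13c (Pearson r = 0.77), Mzb1 (0.74), Hvcn1 (0.73), Gm30211 (0.73) and Gm27201 (0.72). For Jchain they were Derl3 (0.84), Prg2 (0.83), Mzb1 (0.66), Eaf2 (0.64) and Pou2af1 (0.63). These are descriptions over sums that share libraries, depth and free RNA, and Derl3, Mzb1 and Eaf2 were also among the markers that named plasma cells.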

How the data were processed

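Liver suspensions were sequenced with 10x Genomics 3′ chemistry (v3.1). The deposited values are UMI counts per gene and barcode, in a filtered and an unfiltered matrix per library, with no normalization by the authors. The submitters' processing notes name Cell Ranger 6.0.1 and Seurat 4.0.3 and the labels the build mm10, whereas the file headers name Cell Ranger 7.0.0 and 4. Whether intronic reads were counted is therefore not settled, and 3′ counts do not separate secreted from membrane forms.

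Barcodes needed 500 genes or more and a mitochondrial share of 20% or less. Scrublet, run in scanpy 1.11.5, marked the 421 to 958 highest doublet scores per library, a number set by the barcode count, and these were removed. Its own threshold marked 5 in NCD, 55 and 353 in the HFD replicates and 1 in JQF. Leiden clustering used 2000 variable genes, 30 components, 15 neighbours and resolution 1. A cluster was named where at least 3 markers passed, each in 10% of its cells and at 2 times the other cells. The plasma cell cluster was clustered again (10 components, resolution 0.5), a step added after the data were seen. A part with a median depth under 1/3 of that of its library was set apart. CPM are UMIs per 1e+06 UMIs of the cells summed, with no division by gene length, and every level or fold change of a gene is on that scale. The members, lists and rules were chosen with earlier results of these data known.

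Counts were summed per library over B cells and tested with edgeR 4.0.16 in R 4.3.3 (quasi-likelihood, TMM, filterByExpr, group only, 4 libraries, 1 residual degree of freedom), with Benjamini-Hochberg adjustment over all genes tested. NCD and JQF were thus assumed to vary like the HFD pair, and p-values measure only the spread between these 4 samples. That spread was estimated jointly over genes, so a gene's own difference between the HFD replicates weighed little in its SE and p. SE is the absolute log2 fold change over the square root of F. Named beside the 10 genes were list genes past the test at a mean of 50 CPM or more, at most 8 per comparison, by size, and the 5 genes most correlated with Ighm and with Jchain. Pigr, Ccr7, Cd44 and Xbp1 were named after their values were seen. Intervals are exact Clopper-Pearson at 95% and, like upper limits for counts of 0, cover counting error only. The test was checked on simulated data with known changes and the same dispersion for all genes. No simulated library sum was set by a single cell, so the check does not cover such genes. DESeq2 1.42.0, other scalings, filters, clusterings and left-out cells were alternatives.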

Additional observations from a re-analysis of the deposited data

Results flagged for a closer look

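For 4 genes B cells and plasma cells moved in opposite directions in every library of a comparison, as log2 ratios of CPM; these differences between the cell types were not tested. In HFD vs NCD, Igha was at 2.66 in B cells and -1.68 in plasma cells, a difference of 4.34. The B cell value of Igha rested on 10 UMIs in NCD and on 44 and 25 in HFD. Its plasma cell value rested on 3 IgA cells in NCD and on 2 and 6 in HFD. Ighg2b was at -4.02 and 8.09, a difference of -12.1, and the opposite direction was lost without the 1 NCD B cell described above (8.07 CPM in NCD against 8.34 and 55.3 CPM in HFD), while the plasma cell value was 2.49 with cells of at least 200 genes, 2.47 with immunoglobulin genes among the variable genes and 1.51 with predicted doublets kept. Iglc2 was at 1.52 and -0.28, a difference of 1.80, and the plasma cell value was 0.01 with predicted doublets kept. In JQF vs HFD, Igkc was at 0.43 and -0.28, a difference of 0.71. Without the 1 JQF B cell rich in immunoglobulin, Igkc in JQF B cells was 5794 CPM, below both HFD replicates, so the opposite direction was lost. Iglc2 was at -0.29 and 2.23, a difference of -2.52, with the plasma cell value resting on 3 cells. Of the 42 JQF barcodes set apart from the plasma cells, which enter no comparison, 41 had 200 or more Igkc UMIs, and no other library had such barcodes.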

How the results depend on the processing

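The calls of Ighm and Iglc2 in HFD vs NCD held under every alternative with a test. The 7 genes called in HFD vs NCD were 3 by DESeq2, which gave 4 of the 10 genes no adjusted p, and all genes called went from 2859 to 317 by DESeq2 and 949 with predicted doublets kept. In JQF vs HFD the 3 genes called were 1 by DESeq2, 1 with library totals and no TMM, 0 with doublets kept, 0 with cells of at least 200 genes and 1 without B cells above 5% immunoglobulin UMIs. All genes called there went from 384 to 13 by DESeq2, 101 with no TMM, 0 with doublets kept (771 at an unadjusted p under 0.05 by edgeR), 71 with at least 200 genes and 43 with immunoglobulin genes among the variable genes. Ighg2b in HFD vs NCD reversed to 1.93 with at least 200 genes, 1.93 with immunoglobulin genes among the variable genes and 1.99 without the cells rich in immunoglobulin, and Jchain reversed to 1.59, 1.59 and 1.68. Of these, Ighg2b was past the threshold in the last and Jchain in the second (adjusted p = 0.0482, edgeR). Apart from the left-out cells, the cause was not tested. With at least 200 genes, and with immunoglobulin genes among the variable genes, NCD plasma cells went from 31 to 1679 Ighg2b UMIs. Their Jchain UMIs went from 9259 to 9496. The NCD B cell rich in immunoglobulin held 1648 Ighg2b and 237 Jchain UMIs. Leaving out the cells rich in immunoglobulin was chosen after seeing the data. So was setting the 42 JQF barcodes apart, which the whole plasma cell cluster as an alternative undoes. The IgA share of plasma cells in JQF minus HFD, 5.85 percentage points, was -9.45 with the whole plasma cell cluster and ran from -1.79 to 13.5 with 1 HFD replicate left out, being negative without replicate 1. The unswitched share of B cells in HFD minus NCD, 0.122 points, was -0.309 with doublets kept and ran from -0.0372 to 0.282 with 1 HFD replicate left out. Leaving out an HFD replicate leaves no residual degree of freedom, so these are values with no test, and levels in plasma cells were not tested, because HFD replicate 1 was under the chosen minimum of 10 cells in every setting, their shares being tested by permutation only. With predicted doublets kept, Ighm in the plasma cells of HFD replicate 2 went from 490 to 33397 CPM and Ighg2b in NCD from 166 to 11725 CPM, and the log2 ratio of Ighg1 in JQF over HFD from 8.49 to -0.81. No paired analysis was possible because the groups share only replicate number 1. Depth limits the switched classes in B cells, which rest on 2 to 107 UMIs outside the NCD cell rich in Ighg2b.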
